A study of Mus musculus with 36 samples.

Results

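The genes described here are 9 factors of the ventral telencephalon and of its interneurons, namely Nkx2-1, Lhx6, Gsx1, Gsx2, Dlx1, Dlx2, Dlx5, Dlx6 and Gad1. They were chosen by name, not by their values, and are 9 of the 46603 genes listed in each of 2 count tables. Poly(A) RNA of mouse embryonic forebrain labelled as cortex (strain C57Bl/6J) was sequenced at embryonic day (E) 12.5 and E10.5, in embryos with mutant alleles of Chd8, which encodes a chromatin remodelling enzyme. At E12.5 there were 4 genotypes with 3 libraries each, every library from the neocortex of 1 embryo. These were Chd8 +/+ (wildtype), Chd8 +/- (1 null allele), Chd8 neo/neo (both alleles carrying a neomycin resistance cassette within the gene, made to lower its expression) and Chd8 neo/- (1 cassette allele and 1 null allele). At E10.5 there were 3 Ctrl and 3 cKO libraries of telencephalic vesicles, each holding the pooled RNA of 2 embryos. The cKO embryos carried sox1-Cre with Chd8f/f, so that the deletion was driven in Sox1-expressing neural cells and not in mesenchyme or surface ectoderm. The Ctrl embryos were a mixture of Chd8f/f and Chd8 f/+.

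The telencephalon is divided into a dorsal pallium, which makes glutamatergic cortical neurons, and a ventral subpallium, which makes GABAergic neurons in the medial, lateral and caudal ganglionic eminences (MGE, LGE and CGE). GSX factors and then DLX factors mark the progenitors of the subpallium. NKX2-1 specifies the MGE and acts upstream of LHX6, which is kept in MGE-derived interneurons as they migrate tangentially into the cortex, and GAD1 makes GABA in the neurons that result. RNA of Lhx6, Gad1 or the DLX genes in a cortical sample can therefore come from immigrant interneurons or from subpallium taken along at dissection. RNA of Nkx2-1, Gsx1 and Gsx2, genes of ventral progenitors, would come from ventral tissue in the sample. In bulk RNA, fewer cells of a type and less RNA per cell cannot be told apart.

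Positions are those of whole gene spans in GRCm38. Nkx2-1 is on the minus strand at chr12:56531958-56536908. Lhx6 is on the minus strand at chr2:36081953-36105408, and Gad1 on the plus strand at chr2:70553072-70602014. Gsx1 is on the plus strand at chr5:147188696-147190947 and Gsx2 on the plus strand at chr5:75075601-75077893. The DLX genes form convergent pairs, Dlx1 (plus strand, chr2:71528113-71533981) with Dlx2 (minus strand, chr2:71543408-71546754), and Dlx6 (plus strand, chr6:6863334-6868568) with Dlx5 (minus strand, chr6:6877805-6882085). Of the exon bases of Dlx1, 335 (6.21%) are shared with the antisense gene Dlx1as, and 104 of Dlx6 (4.38%) with the antisense gene Dlx6os2. Reads of such partners cannot be told apart where counting did not use strand, which was the case at E12.5 and is not given for E10.5. A further 104 exon bases of Lhx6 (2.16%) are shared with Gm27953 on the same strand.

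Promoter sequences are shown for Gad1 and Gsx2, the members whose levels passed the test in at least 1 comparison. Each is the 250 bases before a RefSeq transcription start on the plus strand of GRCm38.p6, at chr2:70561879-70562128 for Gad1 and chr5:75075351-75075600 for Gsx2, with the homeodomain core TAAT (or ATTA on the other strand) in capitals.
Gad1: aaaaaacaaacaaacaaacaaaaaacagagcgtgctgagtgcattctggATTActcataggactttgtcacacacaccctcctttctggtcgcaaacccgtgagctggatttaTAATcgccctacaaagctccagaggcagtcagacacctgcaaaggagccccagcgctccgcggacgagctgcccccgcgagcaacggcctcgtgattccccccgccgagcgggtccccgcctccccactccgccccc
Gsx2: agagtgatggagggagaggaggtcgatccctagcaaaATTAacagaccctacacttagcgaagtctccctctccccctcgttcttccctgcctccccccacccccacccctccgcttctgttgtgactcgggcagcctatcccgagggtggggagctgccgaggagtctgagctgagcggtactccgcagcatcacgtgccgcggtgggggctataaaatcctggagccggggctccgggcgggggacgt
Of the 9 genes, 7 had a promoter entry (9 promoters in all), and Dlx5 and Dlx6 had none. The letters TAAT occurred on either strand in 4 of these 9 promoters, those of Lhx6, Gad1, Gsx2 and Gsx1, and in 54.9% of all 32851 mouse promoters of that length. The longer palindrome TAATTA, a common form of the DLX motif, occurred in 0 of the 9 and in 4.84% of all. The E-box CACCTG was found in the Gad1 and Nkx2-1 promoters (17.2% of all), the E-box CAGCTG in a Lhx6 promoter (13% of all), and TATAAA in the Gad1 and Gsx2 promoters (12.4% of all), where the Gad1 match lies on the minus strand and overlaps a TAAT shown in capitals. Each match is a description of the letters and not a binding site.

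Library totals were 38774591 to 61051667 counts at E12.5 and 49632937 to 68488879 at E10.5. All 9 genes passed the filter on low counts at both stages, among 18810 genes tested at E12.5 and 18435 at E10.5. Levels are CPM, a library's counts scaled to a common total after TMM scaling. Chd8 itself stood at 237 ± 2.41 CPM (SD, n = 3) in +/+, 167 ± 3.04 CPM (SD, n = 3) in +/-, 209 ± 5.64 CPM (SD, n = 3) in neo/neo and 149 ± 8.38 CPM (SD, n = 3) in neo/-, and at 160.0, 168 and 184 CPM in Ctrl against 120.5, 125 and 116 CPM in cKO. All mutant libraries were below all control libraries of their stage, but the E12.5 levels did not follow the order of the allelic series, since Chd8 was 11.9% lower than wildtype in neo/neo and 29.7% lower in +/-. Counts over the whole gene do not tell full-length transcripts from those that run into the cassette, so they do not check how far the cassette lowered full-length Chd8. In cKO, Cre removes exon 3 of Chd8, so the counts still include its other exons and any cells without Cre. They do not measure the loss of CHD8 protein. Individual libraries stood apart in genes of neighbouring regions. The summed level of 13 diencephalic genes was 315 CPM in +/- replicate 2 and 67.7 to 118 CPM in the other 11 E12.5 libraries, and that of 11 hypothalamic genes was highest in neo/neo replicate 2 (82 CPM) and +/- replicate 2 (66.5 CPM) and lowest in neo/neo replicate 1 (5.29 CPM). At E10.5, Ctrl replicate 2 and cKO replicate 1 had the lowest summed levels of 8 pan-neuronal genes, 226 and 260.2 CPM against 325 to 406 CPM in the other 4. Members with their highest or lowest value of the stage in one of these libraries are given with and without it.

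All 9 genes were present in wildtype E12.5 neocortex. On the scale of CPM per kilobase of exon, where genes can be compared, the wildtype levels (mean ± SD, n = 3) had the following order. Dlx2 (45.6 ± 2.73) and Dlx1 (45.1 ± 1.17), the DLX factors of early subpallial cells, were highest and within each other's spread. Nkx2-1 came next at 30.3 ± 4.36, followed by Dlx5 at 17 ± 0.823 and Lhx6 at 12.6 ± 1.64. Below these were Gsx2 at 8.26 ± 0.766, then Gad1 at 6.83 ± 0.206 and Dlx6 at 6.8 ± 0.351, which did not differ beyond their spread, and Gsx1 at 2.57 ± 0.506. On the same scale the pallial factors Emx1 and Tbr1, from 13 listed dorsal pallium genes, stood at 23.2 ± 1.08 and 41.3 ± 2.37. In libraries labelled as cortex, the subpallial genes Dlx1, Dlx2 and Nkx2-1 were thus at levels comparable to those of Emx1 and Tbr1.

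Across the E12.5 genotypes, Gad1, which encodes the main GABA-synthesising enzyme GAD67, was the one member whose level passed the test. It was 24.4% lower in neo/neo and 20.9% lower in neo/- than in +/+. Lhx6, the interneuron factor downstream of NKX2-1, had the larger differences but also the wider spread and was not called. Nkx2-1, the GSX genes and the DLX genes had no called difference in any pair of genotypes. A gene was called at an adjusted p under 0.05 (edgeR quasi-likelihood test, Benjamini-Hochberg over all genes tested), and the 3 comparisons with +/+ share the same 3 wildtype libraries.

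**Figure D1:**
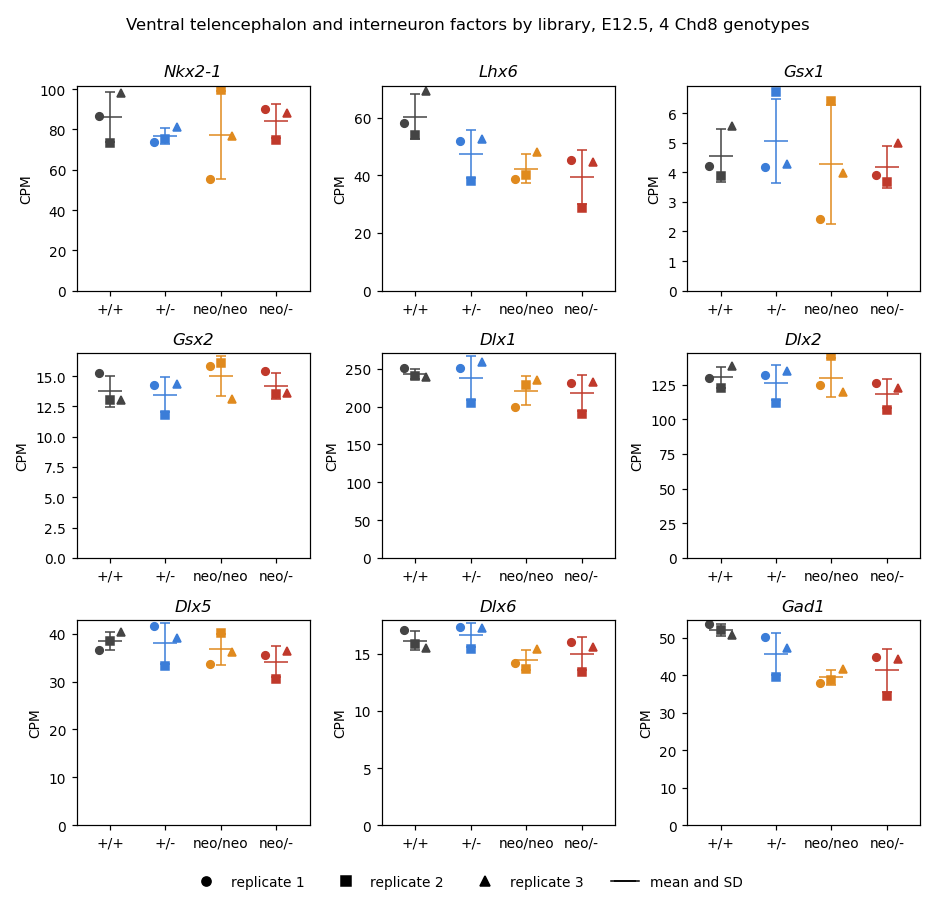
CPM of the 9 genes in each of the 12 E12.5 libraries by genotype (points, shaped by replicate), with bars for the group mean and SD. Gad1 in neo/neo and neo/- lies below the lowest +/+ library (50.6 CPM), whereas Nkx2-1, Gsx1, Gsx2 and Dlx2 overlap with +/+ in every mutant genotype.

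For Gad1, the wildtype libraries (replicates 1, 2 and 3) stood at 53.8, 52.1 and 50.6 CPM and the +/- libraries at 50.2, 39.4 and 47.4 CPM. The neo/neo libraries stood at 37.8, 38.7 and 41.7 CPM and the neo/- libraries at 45, 34.5 and 44.3 CPM. All 9 mutant libraries were below all 3 wildtype libraries, and the mutant genotypes overlapped with each other. The log2 fold change was -0.40 (SE 0.10, edgeR adjusted p = 0.0318) in neo/neo and -0.34 (SE 0.10, edgeR adjusted p = 0.0486) in neo/-. In +/- it was -0.19 (SE 0.10, edgeR adjusted p = 0.807). Genes called lower made up 4.45% of all genes in neo/neo against +/+ and 5.99% in neo/- against +/+, and genes called in either direction 8.16% and 11.5%, beside 1 of 9 members (Gad1) in each. The calls were close to the threshold. In neo/neo the call was lost without +/+ replicate 1 (adjusted p = 0.0785), +/+ replicate 2 (0.103), +/+ replicate 3 (0.0691), neo/neo replicate 1 (0.108) or neo/neo replicate 2 (0.112) in the edgeR fit. In neo/- it was kept without +/- replicate 1 or 2 and lost without any other single library (adjusted p = 0.0501 to 0.139), the highest p and the smallest fold change (-0.23) being those without neo/- replicate 2.

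General neuronal genes were lower along with Gad1 in the hypomorphs but not in +/-. The median log2 fold change of the pan-neuronal list was -0.33 in neo/neo, -0.19 in neo/- and 0.014 in +/-. In +/-, Gad1 was nevertheless below all wildtype libraries. The summed level of 8 pan-neuronal genes was 3672, 4306 and 3919 CPM in +/+ and 4344, 3847 and 3883 CPM in +/-. It was 3013, 3259 and 3497 CPM in neo/neo and 3497, 3295 and 3728 CPM in neo/-. All neo/neo libraries were below all wildtype libraries, while neo/- overlapped with them. Of these 8 genes, Dcx (log2 fold change -0.42), Map2 (-0.32), Elavl4 (-0.29) and Snap25 (-0.48) fell in neo/neo, and Dcx (-0.34) and Map2 (-0.21) fell in neo/-, where Dcx and Map2 encode microtubule-binding proteins of young neurons, Elavl4 a neuronal RNA-binding protein and Snap25 a vesicle fusion protein. Per 1000 CPM of the pan-neuronal list, Gad1 stood at 14.6, 12.1 and 12.9 in +/+ and 11.6, 10.3 and 12.2 in +/-. It stood at 12.6, 11.9 and 11.9 in neo/neo and 12.9, 10.5 and 11.9 in neo/-. Each mutant genotype overlapped with +/+ in this ratio. With the pan-neuronal level as a covariate, the Gad1 log2 fold change was -0.18 (edgeR adjusted p = 0.647) in neo/neo and -0.20 (edgeR adjusted p = 0.290) in neo/-. This covariate, which itself separates neo/neo from +/+, reduced the calls over all genes from 1534 to 40 in neo/neo and from 2158 to 1754 in neo/-. With the dorsal pallium level as a covariate, a measure of pallial content, it was -0.43 (edgeR adjusted p = 0.0261) and -0.36 (edgeR adjusted p = 0.0422). Without both libraries high in hypothalamic or diencephalic genes (+/- replicate 2 and neo/neo replicate 2), it was -0.39 (edgeR adjusted p = 0.0495) and -0.34 (edgeR adjusted p = 0.0232).

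Lhx6 marks postmitotic MGE-derived neurons. Its levels were 58.1, 53.8 and 69 CPM in +/+ and 51.9, 37.9 and 52.5 CPM in +/-. They were 38.8, 40 and 48 CPM in neo/neo and 45.2, 28.7 and 44.7 CPM in neo/-. As for Gad1, every mutant library was below every wildtype library, and neo/- replicate 2 was the lowest of the 12. On the log2 scale, the fold change was -0.51 (SE 0.20, edgeR adjusted p = 0.141) in neo/neo, -0.61 (SE 0.20, edgeR adjusted p = 0.0789) in neo/- and -0.35 (SE 0.20, edgeR adjusted p = 0.830) in +/-. Lhx6 was thus not called in these comparisons. Without neo/- replicate 2 the neo/- value was -0.43 (edgeR adjusted p = 0.161). With the pan-neuronal covariate the fold changes were -0.19 (edgeR adjusted p = 0.858) in neo/neo and -0.42 (edgeR adjusted p = 0.338) in neo/-, and by DESeq2 the neo/- difference had an adjusted p of 0.0201.

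Nkx2-1, expressed in progenitors of the MGE and preoptic area and in the hypothalamus, stood at 86.8, 73.4 and 98.1 CPM in +/+ and 73.6, 75.5 and 81.4 CPM in +/-. The neo/neo libraries spread from the lowest to the highest value of the stage, at 55.6, 99.5 and 76.8 CPM. The neo/- libraries were at 90.3, 74.7 and 88.2 CPM. Groups overlapped in every comparison. The log2 fold change against +/+ was -0.15 (SE 0.19, edgeR adjusted p = 0.678) in neo/neo, -0.030 (SE 0.19, edgeR adjusted p = 0.945) in neo/- and -0.16 (SE 0.19, edgeR adjusted p = 0.948) in +/-. The neo/neo library with the lowest Nkx2-1 (replicate 1) was the lowest of the 12 in the hypothalamic sum and the library with the highest (replicate 2) was the highest in that sum. The neo/neo fold change was 0.027 (edgeR adjusted p = 0.942) without replicate 1 and -0.38 (edgeR adjusted p = 0.246) without replicate 2, so its sign rested on replicate 1. The part of hypothalamic tissue in the Nkx2-1 values was not tested.

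The DLX homeodomain factors act in sequence in the subpallium, Dlx1 and Dlx2 from the progenitors on and Dlx5 and Dlx6 in their postmitotic progeny. Dlx1 stood at 250.4, 241 and 239 CPM in +/+, 199.6, 228 and 236 CPM in neo/neo and 231, 191 and 233 CPM in neo/-. The +/- libraries were at 251, 205 and 258 CPM. Both hypomorph genotypes were below all wildtype libraries, by a small amount, and +/- overlapped with +/+. The lowest library was neo/- replicate 2, as it was for 6 of the 9 genes. Over the 24 alternatives the neo/- log2 fold change of Dlx1 ran from -0.21 to -0.026. The Dlx1 log2 fold change was -0.14 (SE 0.10, edgeR adjusted p = 0.420) in neo/neo, -0.16 (SE 0.10, edgeR adjusted p = 0.344) in neo/- and -0.031 (SE 0.10, edgeR adjusted p = 0.990) in +/-.

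Dlx2 stood at 129.6, 123 and 138 CPM in +/+, 132, 112 and 135 CPM in +/-, 125, 146 and 119 CPM in neo/neo and 126, 107 and 122 CPM in neo/-. All genotypes overlapped with +/+, and neo/neo replicate 2 held the highest value and neo/- replicate 2 the lowest. The log2 fold change was -0.0011 (SE 0.094, edgeR adjusted p = 0.997) in neo/neo, -0.14 (SE 0.094, edgeR adjusted p = 0.397) in neo/- and -0.044 (SE 0.094, edgeR adjusted p = 0.98) in +/-. Without neo/neo replicate 2 the neo/neo value was -0.10 (edgeR adjusted p = 0.612). Dlx5 stood at 36.6, 38.4 and 40.3 CPM in +/+, 41.6, 33.3 and 39.1 CPM in +/-, 33.6, 40.3 and 36.3 CPM in neo/neo and 35.6, 30.5 and 36.4 CPM in neo/-. Only neo/- was below all wildtype libraries, and its fold change on the log2 scale was -0.17 (SE 0.091, edgeR adjusted p = 0.260). Its lowest library was again replicate 2, and the alternatives gave -0.22 to -0.055. The Dlx5 fold change was -0.064 (SE 0.090, edgeR adjusted p = 0.715) in neo/neo and -0.016 (SE 0.091, edgeR adjusted p = 0.994) in +/-. Dlx6 stood at 17.1, 15.9 and 15.5 CPM in +/+, 17.3, 15.5 and 17.3 CPM in +/-, 14.2, 13.7 and 15.5 CPM in neo/neo and 16.1, 13.4 and 15.6 CPM in neo/-. Here neo/neo was just below all wildtype libraries, its replicate 3 within rounding of +/+ replicate 3, and neo/- overlapped. The Dlx6 log2 fold change was -0.16 (SE 0.081, edgeR adjusted p = 0.236) in neo/neo, -0.11 (SE 0.081, edgeR adjusted p = 0.449) in neo/- and 0.047 (SE 0.081, edgeR adjusted p = 0.968) in +/-.

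Gsx1 and Gsx2 encode homeodomain factors of ventral progenitors, Gsx2 with its highest expression in the dorsal LGE. Gsx2 stood at 15.2, 13 and 13 CPM in +/+, 14.2, 11.8 and 14.4 CPM in +/-, 15.9, 16.1 and 13.1 CPM in neo/neo and 15.4, 13.6 and 13.6 CPM in neo/-. The 4 genotypes overlapped, and unlike Gad1 and Lhx6 its difference was above 0 in neo/neo, at 0.12 (SE 0.10, edgeR adjusted p = 0.488). It was 0.044 (SE 0.10, edgeR adjusted p = 0.842) in neo/- and -0.032 (SE 0.10, edgeR adjusted p = 0.990) in +/-, the latter turning to 0.057 (edgeR adjusted p = 0.960) without +/- replicate 2, the lowest library. The neo/neo value was 0.066 (edgeR adjusted p = 0.803) without neo/neo replicate 2, the highest. Gsx1, the least expressed member, stood at 4.23, 3.87 and 5.57 CPM in +/+, 4.2, 6.71 and 4.3 CPM in +/-, 2.41, 6.41 and 3.99 CPM in neo/neo and 3.92, 3.66 and 5.0 CPM in neo/-. Its extremes were the libraries that stood apart in neighbouring regions, with +/- replicate 2 and neo/neo replicate 2 highest and neo/neo replicate 1 lowest. The Gsx1 log2 fold change was -0.076 (SE 0.32, edgeR adjusted p = 0.915) in neo/neo, -0.12 (SE 0.32, edgeR adjusted p = 0.862) in neo/- and 0.15 (SE 0.32, edgeR adjusted p = 0.979) in +/-. In neo/neo it was 0.19 (edgeR adjusted p = 0.748) without replicate 1 and -0.50 (edgeR adjusted p = 0.359) without replicate 2, and in +/- it was -0.10 (edgeR adjusted p = 0.984) without replicate 2, so the signs rested on these libraries.

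In neo/neo, 4 of the 9 genes (Gad1, Lhx6, Dlx1 and Dlx6) had all libraries below all wildtype libraries, and this held for 13.5% of all genes. In neo/-, the 4 genes were Gad1, Lhx6, Dlx1 and Dlx5, and the share of all genes was 16.9%. The median log2 fold change of the 9 was -0.14 in neo/neo and -0.14 in neo/-, beside medians over all genes of 0.0053 and 0.0011. In +/- against +/+, 0 of 9 were called by edgeR, where 0.0213% of all genes were called (4 genes). The members at an unadjusted p under 0.05 were also 0, beside 6.33% of all genes, and DESeq2 called 0. Lhx6 and Gad1, 2 of the 9, were below all wildtype libraries in +/-, as were 5.9% of all genes.

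**Figure D2:**
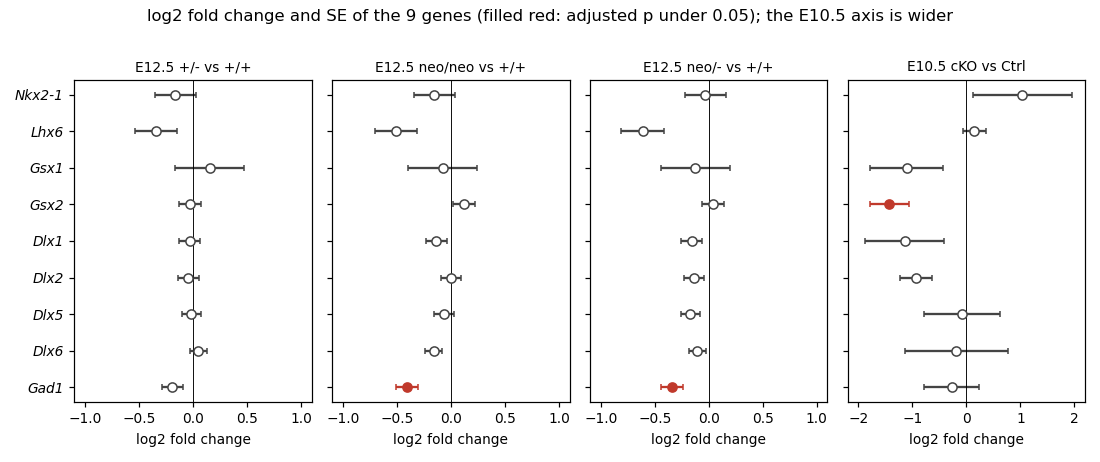
The log2 fold change (point) and its SE (bar) of the 9 genes in the 3 comparisons with +/+ at E12.5 and in cKO against Ctrl at E10.5, filled red where the adjusted p was under 0.05; the E10.5 axis is wider. Gad1 is filled in neo/neo and neo/- and Gsx2 in cKO, and Lhx6 has the lowest points at E12.5 (-0.51 and -0.61).

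Between the mutant genotypes no member was called. In neo/neo against +/-, 5.28% of all genes were called and 0 of 9 members. The nearest was Dlx6, at -0.21 (SE 0.081, edgeR adjusted p = 0.140), the one member at an unadjusted p under 0.05 (23.2% of all genes) and the one whose groups did not overlap with neo/neo lower (12.1% of all genes), so neither count of 1 in 9 exceeded the share of all genes. Gad1 was at -0.21 (SE 0.10, edgeR adjusted p = 0.234) and Lhx6 at -0.16 (SE 0.20, edgeR adjusted p = 0.658) there. In neo/- against +/-, 5.43% of all genes and 0 of 9 members were called, with 0 members and 22.5% of all genes at an unadjusted p under 0.05. Lhx6 was at -0.26 (SE 0.20, edgeR adjusted p = 0.472) and Gad1 at -0.15 (SE 0.10, edgeR adjusted p = 0.424). In neo/- against neo/neo, 0.0159% of all genes (3 genes) and 0 of 9 members were called, with 0 members and 8.43% of all genes at an unadjusted p under 0.05. The largest difference was that of Dlx2, at -0.14 (SE 0.094, edgeR adjusted p = 0.710). DESeq2 also called 0 members in these 3 comparisons.

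Other genes of the same lineages, taken from lists chosen by name, were counted beside the members. Of all genes, 4.45% were called lower in neo/neo and 5.99% in neo/-, and the medians over all genes were 0.0053 and 0.0011. In the GABA list (3 genes), Abat, the GABA-degrading transaminase (-0.38), fell in neo/neo and 0 were called in neo/-, with list medians of -0.31 and -0.29. Of 12 MGE lineage and interneuron genes, Erbb4, a neuregulin receptor of migrating interneurons (-0.37), and Ackr3, a scavenger receptor for CXCL12 (-0.28), fell in neo/neo, and Erbb4 (-0.38) fell in neo/-. The list medians were -0.26 and -0.18. Of 16 LGE and striatal genes, Ebf1 (-0.35), Foxp2 (-0.26) and Pbx3 (-0.25) fell in neo/neo and Foxp2 (-0.20) in neo/-, with medians of -0.11 and -0.11, where Foxp2 is also expressed in pallial neurons. Of 6 CGE genes, Htr3a, a serotonin receptor subunit of CGE-derived interneurons, fell in both (-0.85 and -0.98, medians -0.21 and -0.19). Of the 3 tested genes among the Dlx antisense RNAs and other DLX genes, Dlx1as fell in neo/neo (-0.34 (SE 0.088, edgeR adjusted p = 0.0320)), while Dlx1, with which it shares exon bases, was not called. The list medians were -0.33 and -0.21.

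The lists of ventral progenitor factors and signals had no called member. For 5 subpallial progenitor factors the median was 0.17 in neo/neo and -0.093 in neo/-, with 0 of 5 called in each. Olig2 was at 0.043 in neo/neo and -0.093 in neo/- and Six3 at -0.094 and -0.10. For 9 patterning genes (sonic hedgehog and FGF pathways) the medians were 0.10 and 0.13 with 0 called, Gli3 being at 0.29 (SE 0.11, edgeR adjusted p = 0.131) in neo/neo.

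Markers of pallium and of neighbouring tissue were followed for dissection. Of 13 dorsal pallium genes, Pax6 (0.19) and Dmrta2 (0.38) rose in neo/neo and 0 were called in neo/-, with medians of 0.19 and 0.089. Their summed level was 1528, 1549 and 1590.4 CPM in +/+, 1704, 1500.2 and 1709 CPM in neo/neo and 1586, 1710.0 and 1537 CPM in neo/-, and overlapped between genotypes. No hypothalamic, diencephalic, midbrain and hindbrain, or mesenchyme and surface ectoderm gene was called in either comparison. The medians of these 4 lists were 0.45, 0.63, -0.39 and 0.035 in neo/neo and 0.33, 0.50, 0.017 and 0.016 in neo/-. The diencephalic sum nevertheless separated the genotypes, at 81.5, 78.6 and 75.6 CPM in +/+, 99.7, 118 and 83.9 CPM in neo/neo and 89.7, 87.8 and 112 CPM in neo/-, every hypomorph library being above every wildtype library. The sum was thus higher in the hypomorphs, where Gad1 and Lhx6 were lower. In +/-, where both genes were also below all wildtype libraries, it was 74.8, 315 and 67.7 CPM. Its part in the Gad1 and Lhx6 differences was not tested. How much subpallium each neocortex sample held was not tested apart from the genes above, since the members themselves are its markers.

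**Figure D3:**
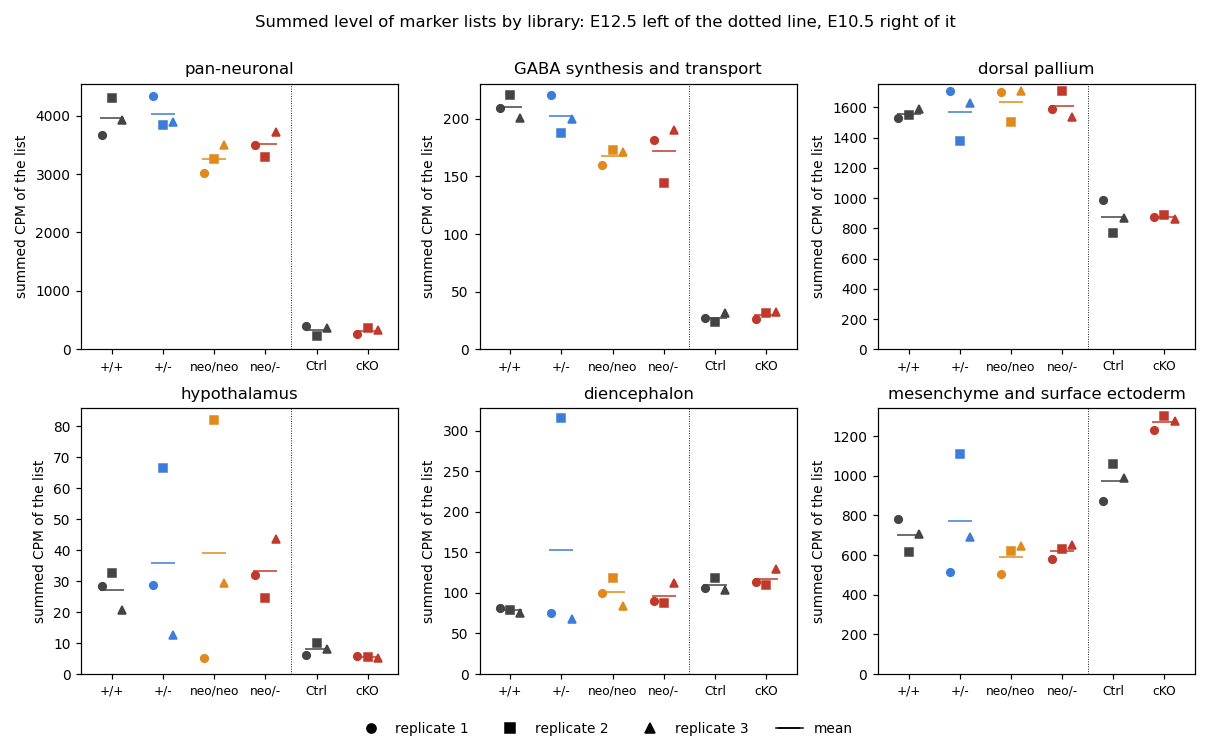
Summed CPM of 6 marker lists in each library (points, shaped by replicate) with the group mean (bar), E12.5 left and E10.5 right of the dotted line. The pan-neuronal sum of the 3 neo/neo libraries (3013 to 3497 CPM) lies below all +/+ libraries, and +/- replicate 2 stands alone in the diencephalic sum (315 CPM).

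At E10.5, before interneurons migrate in number, the 9 genes were low. The tables were scaled separately, so levels of the stages are only set side by side. In Ctrl vesicles, Gsx2 (2.26 ± 0.924 CPM per kilobase, mean ± SD, n = 3) and Dlx2 (2.11 ± 0.658) were highest and within each other's spread. Dlx1 (0.966 ± 0.645), Dlx5 (0.946 ± 0.438) and Dlx6 (0.662 ± 0.428) followed, also within their spread, and then Lhx6 (0.384 ± 0.101). Nkx2-1 (0.148 ± 0.143), Gsx1 (0.108 ± 0.0633) and Gad1 (0.0703 ± 0.0403) were lowest and overlapped. The dorsal factor Emx2 stood at 50.5 ± 4.16 on this scale. Emx1 and Tbr1, the pallial factors given for E12.5, stood at 13.5 ± 3.36 and 1.36 ± 0.993. The mean of Tbr1 was thus below those of Gsx2 and Dlx2.

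In cKO vesicles, Gsx2 fell. Dlx2, Dlx1 and Gsx1 had fold changes below 0 that were not called. The log2 fold change of Nkx2-1, also a gene of ventral progenitors, was above 0 (1.04) and not called. Gsx2 was 62.9% lower than in Ctrl. Every member other than Gsx2 overlapped between groups. Of all genes, 5.7% were called lower and 11.4% in either direction, beside 1 of 9 members. Groups did not overlap, with cKO lower, for 16.6% of all genes and 1 of 9 members.

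**Figure D4:**
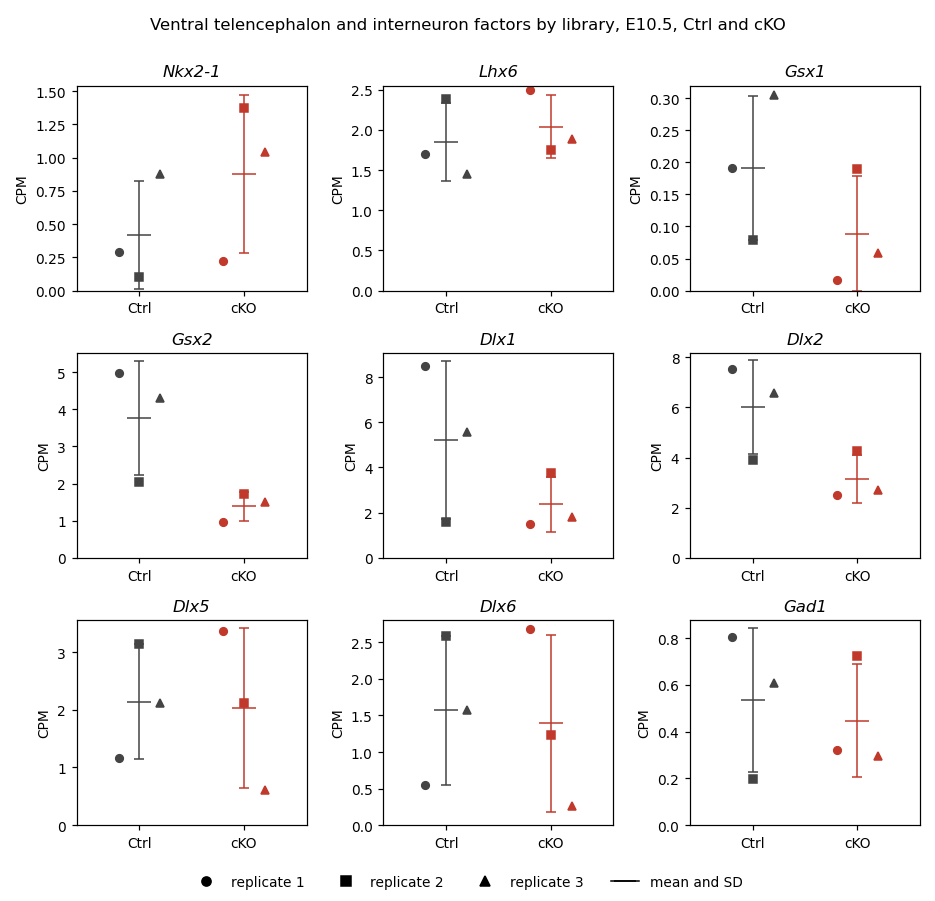
CPM of the 9 genes in the 3 Ctrl and 3 cKO libraries at E10.5 (points, shaped by replicate), with bars for the group mean and SD. All cKO libraries lie below all Ctrl libraries for Gsx2 only (0.961 to 1.72 against 2.03 to 4.97 CPM), and Ctrl replicate 2 is the lowest Ctrl library for Gsx2, Dlx2, Dlx1 and Gad1 but the highest for Dlx5 and Dlx6.

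Gsx2 stood at 4.97, 2.03 and 4.29 CPM in Ctrl replicates 1, 2 and 3 (260, 102 and 240 counts). In cKO it stood at 0.961, 1.72 and 1.5 CPM (57, 109 and 101 counts). The groups did not overlap, although Ctrl replicate 2 was close to cKO replicate 2. This was a log2 fold change of -1.43 in cKO, with an SE of 0.36 and an edgeR adjusted p of 0.0491. Without Ctrl replicate 2, the library low in neuronal genes, it was -1.73 (edgeR adjusted p = 0.000800). The call was lost without Ctrl replicate 1 (edgeR adjusted p = 0.111), Ctrl replicate 3 (0.133), cKO replicate 1 (0.0954), cKO replicate 2 (0.122) or cKO replicate 3 (0.170), with fold changes from -1.61 to -1.18. With the pan-neuronal level as a covariate it was -1.16 (edgeR adjusted p = 0.000665), and with the dorsal pallium level -1.55 (edgeR adjusted p = 0.000122). Calls over all genes also rose, from 2110 to 2352 with the pan-neuronal level and to 3110 with the dorsal pallium level. The same fits gave the covariate values of Dlx2 and Dlx1 below.

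Dlx2 stood at 7.55, 3.92 and 6.58 CPM in Ctrl and 2.5, 4.25 and 2.72 CPM in cKO. The groups overlapped through Ctrl replicate 2 and cKO replicate 2. Its log2 fold change was -0.93 (SE 0.29, edgeR adjusted p = 0.0905), and it was not called. Without Ctrl replicate 2 it was -1.16 (edgeR adjusted p = 0.00823), the one omission with a call. It was -0.79 (edgeR adjusted p = 0.182) without cKO replicate 1, and the other omissions gave edgeR adjusted p of 0.0542 to 0.263. With the pan-neuronal covariate it was -0.75 (edgeR adjusted p = 0.00689) and with the dorsal pallium covariate -1.04 (edgeR adjusted p = 0.00141).

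Dlx1 stood at 8.5, 1.57 and 5.56 CPM in Ctrl and 1.5, 3.76 and 1.83 CPM in cKO. Ctrl replicate 2 lay among the cKO libraries while the other Ctrl libraries lay above them. Its log2 fold change was -1.14 (SE 0.74, edgeR adjusted p = 0.401), with -1.57 (edgeR adjusted p = 0.118) without Ctrl replicate 2 and -0.91 (edgeR adjusted p = 0.583) without cKO replicate 1. With the dorsal pallium covariate, which raised the calls over all genes, it was -1.25 (SE 0.20, edgeR adjusted p = 0.00357). With the pan-neuronal covariate it was -0.61 (SE 0.22, edgeR adjusted p = 0.105). Gsx1 was counted only 10, 4 and 17 times in Ctrl and 1, 12 and 4 times in cKO. At this depth its difference of -1.11 (SE 0.68, edgeR adjusted p = 0.326) was not detectable beyond the spread, and it was -0.66 (edgeR adjusted p = 0.567) without cKO replicate 1, the lowest library.

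Dlx5 stood at 1.17, 3.15 and 2.11 CPM in Ctrl and 3.37, 2.11 and 0.609 CPM in cKO. Dlx6 stood at 0.554, 2.59 and 1.57 CPM in Ctrl and 2.68, 1.23 and 0.267 CPM in cKO. Both genes had their highest values in Ctrl replicate 2 and cKO replicate 1, the same pair of libraries, and the groups overlapped. On the log2 scale, cKO differed from Ctrl by -0.084 (SE 0.70, edgeR adjusted p = 0.958) for Dlx5 and -0.19 (SE 0.95, edgeR adjusted p = 0.928) for Dlx6. Without Ctrl replicate 2 the differences were 0.30 (edgeR adjusted p = 0.870) and 0.36 (edgeR adjusted p = 0.885), and without cKO replicate 1 they were -0.66 (edgeR adjusted p = 0.598) and -1.08 (edgeR adjusted p = 0.527), so their sign rested on which of the pair was kept. These genes are also expressed outside the brain, in branchial arch mesenchyme and facial ectoderm. The surface ectoderm gene Epcam, 1 of 18 listed mesenchyme and surface ectoderm genes, was highest in the same pair (20.6 and 21.3 CPM). The sum of that list did not follow the pair. It was highest of the Ctrl libraries in replicate 2 (1059.9 CPM) but lowest of the cKO libraries in replicate 1 (1230.1 CPM). The part of such tissue in the Dlx5 and Dlx6 values was not tested.

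Lhx6 stood at 1.7, 2.39 and 1.45 CPM in Ctrl and 2.5, 1.75 and 1.89 CPM in cKO, a difference of 0.15 (SE 0.21, edgeR adjusted p = 0.697) on the log2 scale. Like Dlx5 and Dlx6, Lhx6 was highest in Ctrl replicate 2 and cKO replicate 1, and the tissue source of its RNA at E10.5 was not tested. Nkx2-1 stood at 0.287, 0.0996 and 0.877 CPM in Ctrl and 0.219, 1.37 and 1.04 CPM in cKO, a difference of 1.04 (SE 0.92, edgeR adjusted p = 0.536) on the log2 scale. Gad1 stood at 0.803, 0.199 and 0.608 CPM in Ctrl and 0.32, 0.724 and 0.297 CPM in cKO, a difference of -0.27 (SE 0.51, edgeR adjusted p = 0.780) on the log2 scale. For all 3 genes the groups overlapped, and the SE of Nkx2-1 was nearly as large as its difference. Without Ctrl replicate 2, lowest in Nkx2-1 and Gad1, the differences were 0.59 (edgeR adjusted p = 0.746) for Nkx2-1 and -0.65 (edgeR adjusted p = 0.289) for Gad1, and without cKO replicate 1, highest in Lhx6, that of Lhx6 was -0.019 (edgeR adjusted p = 0.969).

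Of the other ventral genes at E10.5, the 4 tested subpallial progenitor factors had 0 called and a median of -0.24. Of 9 tested MGE genes, Cxcr4, the CXCL12 receptor, fell (-0.33, list median 0.049). Of 14 tested LGE genes, Meis2 fell (-0.36, list median 0.11). Of 8 tested patterning genes, Fgf8, a signal of the anterior midline, fell (-0.58, list median 0.17). None of the 6 CGE genes (median 0.023), the 2 tested GABA genes (median -0.17) or the 3 tested Dlx antisense and other DLX genes (median -0.30) was called. The median over all genes was -0.0019, and 5.7% of all genes were called lower.

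Tissue markers at E10.5 separated the groups in the mesenchyme and hypothalamic lists. The summed level of 18 mesenchyme and surface ectoderm genes was 874, 1059.9 and 988 CPM in Ctrl and 1230.1, 1300.1 and 1278 CPM in cKO, so all cKO libraries were above all Ctrl libraries. Of the 16 tested, the collagen genes Col1a2 (0.40) and Col3a1 (0.44) rose, and 1 of the 18 was at 0 in every Ctrl library. The summed level of 11 hypothalamic genes was 6.02, 9.92 and 8.12 CPM in Ctrl and 5.73, 5.56 and 5.27 CPM in cKO, so all cKO libraries were below all Ctrl libraries, as for Gsx2. The part of either in the Gsx2 difference was not tested. Of 12 tested dorsal pallium genes, 0 were called (median 0.060), Lhx2 being at 0.012 and Emx2 at 0.068. Among genes of other regions, Pomc fell (-0.80, 6 tested hypothalamic genes, median -0.41), Pax8 fell (-1.62, 7 tested midbrain and hindbrain genes, median 0.046), and 0 of 12 tested diencephalic genes were called (median 0.10). Of 8 pan-neuronal genes, Snap25 fell (-0.67, median -0.060).

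**Figure D5:**
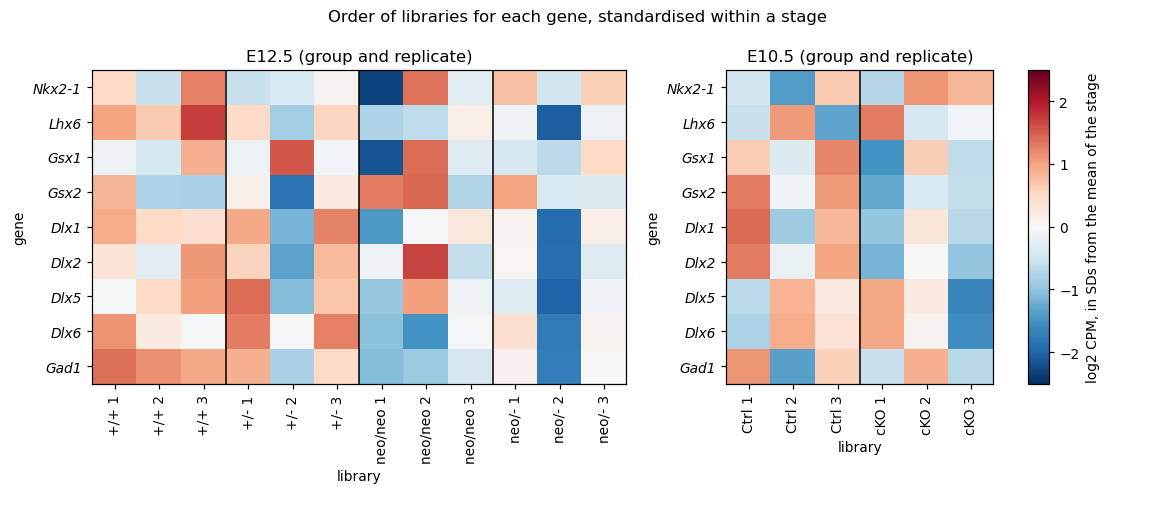
Level of each gene (rows) in each library (columns), as log2 CPM in SDs from the mean of its stage, with black lines between groups. At E12.5, neo/- replicate 2 is the lowest library for 6 of the 9 genes; at E10.5, Gsx2, Dlx1 and Dlx2 share an order of libraries that differs from that of Dlx5 and Dlx6.

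Over the 12 E12.5 libraries, Gad1 and Lhx6 had the closest pattern among members (r = 0.91, rho = 0.93), and the DLX pairs were less alike, Dlx1 with Dlx2 at r = 0.65, rho = 0.50 and Dlx5 with Dlx6 at r = 0.51, rho = 0.52. Dlx2 was closer to Dlx5 (r = 0.86, rho = 0.83). Nkx2-1 was closest to Gsx1 (r = 0.73, rho = 0.64), and Gsx2 with Gad1 gave r = -0.039, rho = -0.18. Over the 6 E10.5 libraries, Gsx2 and Dlx2 (r = 0.97, rho = 0.94) and Dlx5 and Dlx6 (r = 0.99, rho = 1.00) were most alike, and Dlx1 with Dlx5 gave r = -0.25, rho = -0.60. These correlations describe libraries that share genotype, dissection and scaling, and were not tested.

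Among 18144 genes searched over the 12 E12.5 libraries, the 3 most like Gad1 included Gm14204 (r = 0.97) and Nrxn3 (r = 0.93). Those most like Lhx6 were Grik3 (r = 0.91), Efcab6 and Dnajc18, and those most like Nkx2-1 were Errfi1 (r = 0.91), Sugct and the antisense gene Gm26973 (r = 0.89). Gsx1 was most like Olig1 (r = 0.93), Gpr17 and Spon1, and Gsx2 most like Gm38080 (r = 0.90), Gm42764 and 2700038G22Rik. Dlx1 was most like Apol7d (r = 0.91), Sox1ot and Sp9 (r = 0.88), Dlx2 most like Rpp40 (r = 0.89), Heatr3 and Nlk, and Dlx6 most like St8sia5 (r = 0.96), Luc7l3 and Itgbl1. The 3 most like Dlx5 included Pcdhga6 (r = 0.86) and Apex2. The 10 genes most like the mean of the 9 were Apol7d, Pdss1, Fgd3, Grik3, Pcdhga6, Sp9, Lhx8, Itih2, Gm24564 and Il2ra (r = 0.82 to 0.91).

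At E10.5, with 6 libraries and 18304 genes searched, high correlations are common and the lists carry less. Gsx2 was most like Mfap3l (r = 1.00), Ctso and Ssbp4, Dlx1 most like Cntrl (r = 0.99), Sp9 (r = 0.99) and Mettl11b, and Dlx2 most like 9130008F23Rik, Fam234b and Tmem178b. Dlx5 was most like Hnrnpll, Gm26732 and Fgfrl1, and Dlx6 most like Gipr, Kansl2-ps and Hnrnpll. Lhx6 was most like Slc3a1, Gpc5 and Hace1, Nkx2-1 most like Exoc6b, Col6a1 and Txlnb, Gsx1 most like Prkdc, Nrxn3 and Rfc1, and Gad1 most like Tspan32os, Cntn1 and Gm11889 (r from 0.98 to 1.00 for these genes). Sp9, which encodes a zinc finger factor of LGE and MGE neuroblasts, was thus the one gene among the 3 most like Dlx1 at both stages. At E10.5 it had only 5 to 31 counts in a library, so its likeness there carries counting error.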

How the data were processed

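RNA-seq of mouse E12.5 neocortex (12 libraries) and E10.5 telencephalic vesicles (6 libraries) was examined, with 3 libraries per group. The authors trimmed paired-end reads with Trim Galore 0.4.1, aligned them to GRCm38 with TopHat2 2.1.0 and assigned them to genes with featureCounts 1.5.0, and deposited raw read counts per gene and run. The kit marks strand, and the E12.5 counting command used no strand option; that for E10.5 is not given in the sources used here. Counts of the 2 runs of a library were summed. The authors' own statistics were not used.

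Genes were filtered with filterByExpr and scaled by TMM, and each stage was fitted in 1 model with edgeR 4.0.16 (robust quasi-likelihood test, R 4.3.3), with Benjamini-Hochberg adjustment over all genes tested and a threshold of 0.05. The pipeline was tested on simulated counts. The members and gene lists were chosen with earlier results of these data known. A few genes, 3 of them on the lists, are not reported here and were left out of the list counts and medians; the fit across all genes kept them. All members are named; of other lists, called genes are named or, failing that, up to 3 with the highest CPM. Likeness is Pearson r of log2 CPM (prior count 2) over genes with a mean of at least 10 counts. Each comparison rests on groups of 3, so p-values reflect the spread between these libraries, and CPM of low genes carry counting error. Same-numbered libraries deviated together in every pair in neo/neo against +/- only (correlations of deviations 0.108, 0.195 and 0.199). These correlations are weak, and the design names no pairing. The replicate block changed no member call there, while the calls over all genes went from 994 to 572. Alternatives were DESeq2 1.42.0, RLE and upper quartile scaling, no filter on low counts, a replicate block, only the groups compared, either run alone, sex-linked, dorsal pallium or pan-neuronal expression as a covariate, and omission of libraries.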

Additional observations from a re-analysis of the deposited data

How the results depend on the processing

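Each comparison was recomputed under 24 alternatives at E12.5 and 16 at E10.5, the pan-neuronal covariate and the joint omission of +/- replicate 2 and neo/neo replicate 2 being added after seeing the data. Gsx1 at E10.5 was filtered out with either run alone and gave no value there. Of 1438 member values under alternatives, 1398 stayed on their side of the threshold (93 of them with the sign changed and neither value called), 31 lost a call and 9 gained one, and no called value changed sign. In neo/neo against +/+ (1 member called), 0 were called with no filter on low counts, with the sex-linked covariate and with the pan-neuronal covariate, 2 (Gad1 and Lhx6) with the replicate block, and 0 to 1 without single libraries. In neo/- against +/+ (1 called), 0 were called with no filter, the second run alone, the sex-linked covariate and the pan-neuronal covariate, 2 by DESeq2 and with the replicate block, and 0 to 1 without single libraries. In cKO against Ctrl (1 called), 0 were called with upper quartile scaling, no filter, the replicate block and the second run alone, 2 by DESeq2, with the sex-linked covariate and with the pan-neuronal covariate, 3 with the dorsal pallium covariate, and 0 to 2 without single libraries. The cause was not tested. In the other 4 comparisons 0 members were called under all 24 alternatives. Outside neo/neo against +/-, same-numbered libraries did not deviate together in every pair, so the replicate numbers were not taken as a pairing. Depth bears most on Gsx1 at E10.5, which had 1 to 17 counts in a library.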

Other observations

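The 2 E12.5 libraries with the highest hypothalamic sums were also highest in Shh and its receptor and target Ptch1. Shh, the ventralising signal, stood at 15.7 CPM in +/- replicate 2 and 16.6 CPM in neo/neo replicate 2, and Ptch1 at 155 and 148 CPM. Gli1, another target of the pathway, was at 23.2 and 20.4 CPM there, with neo/- replicate 3 between them at 21.5 CPM. The thalamic factor Tcf7l2 reached 159 CPM in +/- replicate 2 and 33.6 CPM in neo/neo replicate 2. The members divided between them, with Gsx2 lowest of the 12 in +/- replicate 2 (11.8 CPM) and Nkx2-1 and Dlx2 highest in neo/neo replicate 2 (99.5 and 146 CPM).

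At E10.5, Ctrl replicate 2 and cKO replicate 1 were the pair high in Dlx5, Dlx6 and Lhx6. They were also highest in Dlx3, a DLX gene of ectoderm (1.73 and 2.21 CPM). The pair was lowest in Tbr1, a factor of early pallial neurons (1.35 and 4.52 CPM), and Neurog2, a pallial proneural factor (8.66 and 15.3 CPM). It was also lowest in Dcx (6.87 and 8.87 CPM). These libraries are of opposite groups.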
